A study of Homo sapiens with 6 samples.

Results

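The genes described here are 55 genes of the G2 phase and of mitosis, chosen by name: cyclins and their kinases, checkpoint proteins, mitotic kinesins, centromere and kinetochore proteins, condensin subunits, spindle and cytokinesis proteins, the separase axis and a pair of transcription factors. All 55 were found, 1 row each, among the 37923 genes of the count table, and all 55 passed the expression filter that left 18581 genes to test. RNA was sequenced from 6 libraries, 3 labelled ENZ and 3 labelled Control. The labels give RKO, a human colorectal carcinoma cell line, for both groups. The design text of the series describes ENZ as cells given A3, a compound that degrades the histone demethylase LSD1, with RNA taken at 48 h. It describes Control only as the control group, and it does not say what the name ENZ stands for. It calls the libraries biological replicates without naming the dish, passage or day of any, so p-values here rest on the spread among libraries, which may be technical. A degrader acts on a protein, so the level of the LSD1 transcript would not check the exposure. No other transcript was examined as such a check, so the exposure was not checked here.

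A cell enters mitosis when CDK1, bound to B-type cyclins, is switched on by CDC25 phosphatases. PLK1 and the Aurora kinases then drive spindle assembly, condensins and topoisomerase II compact the chromosomes, and kinesins move them along microtubules. The spindle checkpoint holds the anaphase-promoting complex (APC/C, a ubiquitin ligase) in check until every kinetochore is attached, after which separase cuts cohesin and the cell divides. Transcripts of these genes are made mainly in G2 and mitosis and are widely read as a mark of dividing cells. Their promoters are known for a CHR element, the site at which the MuvB complex binds. MuvB represses them together with RBL1 or RBL2 (the DREAM complex) in resting cells, and activates them together with MYBL2 and FOXM1 in G2. In bulk RNA a smaller share of cells in G2 or mitosis and less of a transcript per cell cannot be told apart.

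Libraries held 26756840 to 30025543 counts in ENZ and 26691289 to 28207612 counts in Control. Levels below are FPKM (counts scaled by gene length and library total), which can be compared between genes. The markers of the labelled tissue were mostly low. Of 9 intestinal markers measured, 7 had a mean under 1 FPKM, CDX1 and KRT20 did not exceed 0.0211 FPKM in any library, and the summed level of the list, mostly EPCAM and VIL1, was 34.9 to 37.8 FPKM in ENZ and 35.2 to 36.9 FPKM in Control. Of 12 prostate luminal markers, 2 had a mean under 1 FPKM, and their summed level was 807 to 817 FPKM in ENZ and 809 to 825 FPKM in Control. Of the 11 prostate markers tested 5 were called lower and 5 higher. The libraries are therefore named by their labels only, and the part of cell identity in the results was not tested.

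The promoters of these genes are described first, because the CHR element is what their regulation is known for. They were chosen after the expression values were seen. RefSeq windows (GRCh38.p14), from 250 bases before to 50 bases after each start, were matched by symbol for 47 of the 55 genes; AURKA, BIRC5, BUB3, FOXM1, RACGAP1, TPX2, TTK and UBE2C are named only. For the CHR element only the letters TTTGAA were searched, on either strand. They stood in the windows of 35 of the 47 genes (74.5%), against 18.2% of the 27305 symbols in the table. CCAAT, the box bound by NF-Y, stood on either strand in 36 of 47 (76.6%), against 39.7% of all symbols, and both motifs together in 28 of 47 (59.6%), against 7.26%. The E2F-type letters TTTGGCGC or TTTCCCGC were found in 2 of 47 (4.26%), against 2.75%. A match to letters is a description and does not show that a protein binds there.

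**Figure D1:**
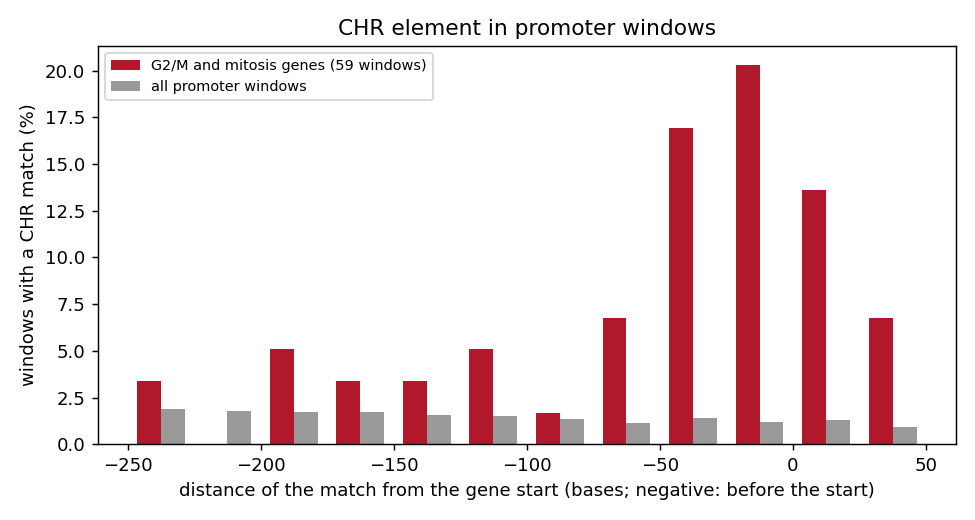
Share of promoter windows (vertical axis, percent) with a CHR match on either strand in each class of 25 bases, by the distance of the match from the gene start (horizontal axis, bases), for the 59 windows of the mitosis genes (red) and all 35116 windows (grey). The red bars are tallest from 50 bases before to 25 bases after the start, reaching 20.3% of windows in the last 25 bases before it, against 1.17% of all windows.

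The 100 bases before the start are shown for 7 genes, 5' to 3' on the strand of the gene, to set promoters of genes that fell beside those of CCNB2 and CDC25C, which were not called below. They are, in GRCh38, CDK1 at chr10:60778378-60778477 (plus strand), CCNB2 at chr15:59105046-59105145 (plus strand), CDC25C at chr5:138331805-138331904 (minus strand), PLK1 at chr16:23678789-23678888 (plus strand), MKI67 at chr10:128126424-128126523 (minus strand), NCAPG at chr4:17810879-17810978 (plus strand) and HMMR at chr5:163460532-163460631 (plus strand), and belong to 1 RefSeq start of each gene. Only a start with a CHR match in these 100 bases was printed, and of several such starts the one with the most matches. Capitals mark CHR letters and CCAAT boxes, each on either strand.
CDK1: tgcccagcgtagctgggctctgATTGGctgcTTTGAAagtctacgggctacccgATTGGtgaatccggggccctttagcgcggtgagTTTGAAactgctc
CCNB2: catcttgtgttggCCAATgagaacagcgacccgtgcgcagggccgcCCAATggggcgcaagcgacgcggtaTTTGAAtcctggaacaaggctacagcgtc
CDC25C: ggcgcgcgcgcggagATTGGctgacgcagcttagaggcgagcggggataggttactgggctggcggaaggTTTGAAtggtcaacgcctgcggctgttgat
PLK1: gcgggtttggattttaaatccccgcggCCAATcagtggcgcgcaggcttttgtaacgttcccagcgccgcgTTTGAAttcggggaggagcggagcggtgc
MKI67: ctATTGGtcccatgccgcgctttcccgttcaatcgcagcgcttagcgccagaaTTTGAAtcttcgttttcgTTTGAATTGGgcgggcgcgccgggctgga
NCAPG: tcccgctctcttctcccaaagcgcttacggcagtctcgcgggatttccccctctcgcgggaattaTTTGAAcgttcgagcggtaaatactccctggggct
HMMR: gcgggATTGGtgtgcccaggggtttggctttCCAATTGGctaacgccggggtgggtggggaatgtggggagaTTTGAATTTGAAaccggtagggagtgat
A CHR match lay 29 bases before the start in CCNB2 and in PLK1 and 30 bases before it in CDC25C. CDK1 carried 2 in these bases, at 69 and 13 bases before the start. In MKI67, where matches began 47 and 29 bases before the start, the nearer one overlapped an inverted CCAAT box, and in HMMR 2 CHR matches stood end to end, beginning 28 and 22 bases before the start. NCAPG had no CCAAT in these 100 bases. The presence of a CHR match here follows from the choice of starts, so these sequences do not compare genes that fell with genes not called. At another start of CDC25C the CHR match began 43 bases after the start, and at another start of CDK1 161 bases before it.

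Most of the 55 genes were lower in ENZ. In edgeR's quasi-likelihood test 46 were called lower and 1 higher at an adjusted p under 0.05 (Benjamini-Hochberg over all 18581 genes), and 8 were not called. Among all tested genes 19.3% were called lower and 20.5% higher, against 83.6% called lower among the mitosis genes. The median log2 fold change of the 55 was -0.30, against -0.01 for all tested genes. The falls were small: log2 fold changes ran from -0.95 to 0.15, and none of the 55 passed the absolute limit of 1 that the series design states (0 in edgeR and 0 in DESeq2, with 49 and 47 of the 55 at an unadjusted p under 0.05), against 2.98% of all tested genes. On TMM-scaled counts every ENZ library was below every Control library in 47 of the 55, a pattern that 24% of all tested genes showed. In FPKM, which is scaled by library total, the same held for 49, with CCNB2 and CDC25C added. The share of all tested genes was not counted in FPKM. The summed level of the 55 genes was 1425, 1391 and 1370 FPKM in ENZ, against 1751, 1737 and 1748 FPKM in Control. The groups did not overlap in this sum, and the ENZ libraries differed more among themselves than the Control libraries did.

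**Figure D2:**
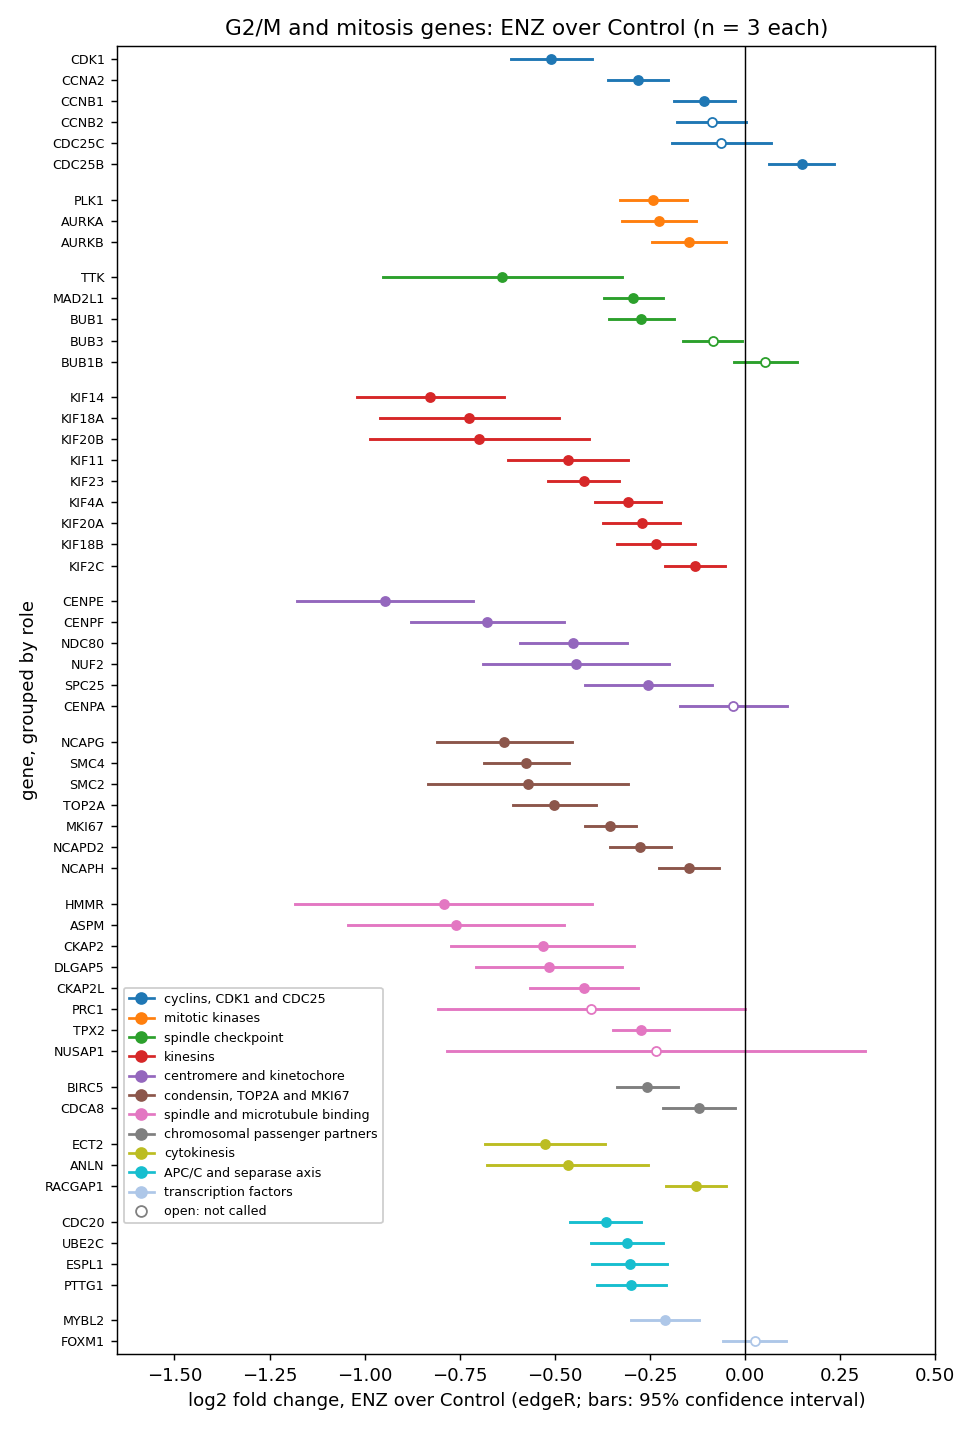
Log2 fold change of ENZ over Control (horizontal axis; points, with bars for the 95% confidence interval) for each of the 55 genes (vertical axis), coloured by role; filled points were called at an adjusted p under 0.05 in edgeR's quasi-likelihood test. The points run from -0.95 for CENPE to 0.15 for CDC25B, and 52 of 55 lie below 0.

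The cyclins, CDK1 and the CDC25 phosphatases, the switch for entry into mitosis, were the most divided role, with 3 of 6 called lower, 1 called higher and a median log2 fold change of -0.10. CDK1, the kinase of that switch (chromosome 10, 60778331 to 60794852, GRCh38), had 37.3, 34.8 and 31.6 FPKM in ENZ, against 53.3, 48.6 and 49.2 FPKM in Control. All ENZ libraries lay below all Control libraries, and CDK1 fell by 0.51 ± 0.05 on the log2 scale (SE; adjusted p = 4.4e-07 in edgeR). CCNA2, cyclin A, which acts in S phase and G2, fell by 0.28 ± 0.04 (57.3 to 60.3 FPKM in ENZ and 71.7 to 75.8 FPKM in Control; adjusted p = 4.15e-06), and with offsets for GC content and length the log2 fold change was -0.13. The B-type cyclins, the partners of CDK1 in mitosis, moved less. CCNB1 had 85.2, 87.4 and 92.4 FPKM in ENZ, against 98.8, 97.1 and 96.4 FPKM in Control, a log2 fold change of -0.11 (adjusted p = 0.0317 in edgeR). That call was lost in 9 of the 17 alternatives, among them without Control replicate 1, 2 or 3 or ENZ replicate 1 or 2, and with offsets for GC content and length the value was 0.06 (adjusted p = 0.258 in edgeR). CCNB2 had 37.6, 39.2 and 35.8 FPKM in ENZ, against 40.6, 41.8 and 40.1 FPKM in Control. The CCNB2 groups lay close together, and the change of -0.09 on the log2 scale had an interval from -0.18 to 0.00 (95%; adjusted p = 0.115 in edgeR) and turned to 0.02 with the offsets.

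The phosphatase genes that activate CDK1 stood apart from CDK1 itself. CDC25B (chromosome 20, 3786772 to 3806121, GRCh38) was the 1 gene of the 55 called higher, with 48.6, 51.7 and 49.6 FPKM in ENZ, against 45.7, 48.4 and 44.4 FPKM in Control. Its rise was 0.15 ± 0.04 on the log2 scale (adjusted p = 0.00642 in edgeR), and the lowest ENZ library was just above the highest Control library. The call was lost in 7 of the 17 alternatives, among them the offsets for GC content and length (0.05; adjusted p = 0.208 in edgeR), and without Control replicate 3 or ENZ replicate 2 (0.12 in each). CDC25C had 7.57, 8.14 and 8.03 FPKM in ENZ, against 8.22, 8.29 and 8.88 FPKM in Control, a log2 fold change of -0.06 (adjusted p = 0.455 in edgeR).

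The 3 mitotic kinase genes outside the checkpoint all fell, with a median log2 fold change of -0.23. PLK1, which acts at entry, at centrosomes and in cytokinesis, had 21.8, 22.4 and 21.9 FPKM in ENZ, against 26.0, 27.8 and 26.3 FPKM in Control, and fell by 0.24 ± 0.04 (adjusted p = 9.34e-05 in edgeR). AURKA, the centrosomal Aurora kinase, fell by 0.23 ± 0.05 (adjusted p = 5.91e-04). AURKB, the Aurora kinase of the chromosomal passenger complex, had 37.2, 39.7 and 40.9 FPKM in ENZ, against 45.5, 45.3 and 42.8 FPKM in Control. It fell by 0.15 ± 0.05 (adjusted p = 0.0159 in edgeR), a call lost in 4 of the 17 alternatives, including without Control replicate 1, Control replicate 2 or ENZ replicate 1. Its partners in the complex, BIRC5 (survivin) and CDCA8 (borealin), fell by 0.26 ± 0.04 and 0.12 ± 0.05. BIRC5 had 43.3, 45.1 and 46.1 FPKM in ENZ, against 54.8, 55.7 and 54.2 FPKM in Control. CDCA8 had 29.5, 30.5 and 30.7 FPKM in ENZ, against 34.6, 33.9 and 32.5 FPKM in Control, and its call (adjusted p = 0.038 in edgeR) was lost in 6 of the 17 alternatives. Leaving out Control replicate 1, Control replicate 2, ENZ replicate 1 or ENZ replicate 2 each ended the CDCA8 call.

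Of the 5 spindle checkpoint genes 3 were called lower. TTK (MPS1), the kinase that starts checkpoint signalling, had 13.1, 10.9 and 8.89 FPKM in ENZ, against 17.8, 17.2 and 17.4 FPKM in Control. TTK fell by 0.64 ± 0.13 (adjusted p = 0.00946 in edgeR), and its ENZ libraries were spread more widely than its Control libraries. MAD2L1 (MAD2), which binds and holds CDC20, had 27.4, 27.2 and 27.2 FPKM in ENZ, against 35.2, 32.9 and 34.7 FPKM in Control, and fell by 0.29 ± 0.04 (adjusted p = 2.27e-06 in edgeR). BUB1, a checkpoint kinase, fell by 0.27 ± 0.04. With offsets for GC content and length the log2 fold changes were smaller, -0.11 for MAD2L1 and -0.17 for BUB1. BUB1B (BUBR1), which forms the inhibitor of the APC/C with MAD2 and BUB3, had 34.7, 32.5 and 32.2 FPKM in ENZ, against 33.7, 32.4 and 31.9 FPKM in Control. Its groups overlapped, the change was 0.05 on the log2 scale (95% interval -0.03 to 0.14; adjusted p = 0.307 in edgeR), and with offsets for GC content and length it was called higher by 0.15 (adjusted p = 3.69e-04 in edgeR). BUB3, the shared subunit that brings BUB1 and BUBR1 to kinetochores, had 25.2, 23.7 and 23.7 FPKM in ENZ, against 26.6, 26.3 and 25.8 FPKM in Control (log2 fold change -0.09; adjusted p = 0.0688 in edgeR). BUB3 became a lower call in 4 of the 17 alternatives, among them without ENZ replicate 1, and its value turned to 0.04 with the offsets. Over the 7 genes that encode a kinase, counting CDK1, PLK1, both Aurora kinases, TTK, BUB1 and BUB1B, 6 were called lower and the median log2 fold change was -0.24.

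All 4 genes of the APC/C and separase axis fell, with log2 fold changes from -0.37 to -0.30. CDC20, the activator of the APC/C that the checkpoint holds, had 72.7, 76.8 and 82.4 FPKM in ENZ, against 99.3, 103.96 and 103.01 FPKM in Control, and fell by 0.37 ± 0.04 (adjusted p = 1.54e-06 in edgeR). UBE2C, the ubiquitin-conjugating enzyme of the APC/C, fell by 0.31 ± 0.05. ESPL1 (separase), the protease that cuts cohesin, fell by 0.30 ± 0.05, and PTTG1 (securin), its inhibitor and a substrate of the APC/C, had 38.9, 40.9 and 40.8 FPKM in ENZ, against 50.6, 51.4 and 50.1 FPKM in Control. PTTG1 fell by 0.30 ± 0.04; with offsets for GC content and length the log2 fold changes were -0.40 for ESPL1 and -0.25 for PTTG1, and the difference between them was not tested.

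Every one of the 9 kinesin genes was called lower, with a median log2 fold change of -0.42. KIF14, a kinesin of cytokinesis (chromosome 1, 200551497 to 200620751, GRCh38), had 3.44, 3.13 and 2.52 FPKM in ENZ, against 5.85, 5.12 and 5.55 FPKM in Control. It fell by 0.83 ± 0.09 (adjusted p = 6.31e-06 in edgeR), a level 0.564 times that of Control. KIF23, which forms centralspindlin with RACGAP1, had 13.0, 11.9 and 11.7 FPKM in ENZ, against 16.7, 17.03 and 16.7 FPKM in Control, and its fall of 0.42 ± 0.04 had the smallest p of the kinesins (adjusted p = 1.54e-07 in edgeR). KIF18A, which restrains the movements of chromosomes at the spindle equator, and KIF20B, a kinesin of abscission, fell by 0.725 and 0.70. KIF20B was low, at 0.485 to 0.683 FPKM in ENZ and 0.825 to 1.04 FPKM in Control. KIF11 (Eg5), which pushes the spindle poles apart, fell by 0.47, KIF4A, a motor of chromosome arms and the central spindle, by 0.31, KIF20A, which carries the passenger complex, by 0.27 and KIF18B, which limits the length of spindle microtubules, by 0.23. KIF2C (MCAK), which takes microtubules apart at centromeres, had the smallest fall, with 36.6, 36.9 and 36.8 FPKM in ENZ, against 41.0, 40.5 and 42.3 FPKM in Control (0.13 ± 0.04; adjusted p = 0.00871 in edgeR). The KIF2C call was lost without Control replicate 3 (0.11; adjusted p = 0.0682 in edgeR). KIF4A has a near-identical copy, KIF4B, which held 5 to 12 counts in ENZ and 5 to 15 in Control, against a mean of 2860 counts for KIF4A. The order of the kinesins was not the same with the GC and length offsets, where KIF18A had -0.49, KIF18B -0.33 and KIF11 -0.31. Differences between kinesins were not tested.

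Of the 6 centromere and kinetochore genes 5 were called lower, and the median log2 fold change was -0.45. CENPE, the kinetochore kinesin that brings chromosomes to the spindle equator (chromosome 4, 103105349 to 103198445, GRCh38), had 2.18, 2.31 and 1.97 FPKM in ENZ, against 4.89, 3.57 and 4.28 FPKM in Control. It showed the lowest log2 fold change of the 55 genes, -0.95 ± 0.10 (adjusted p = 3.57e-05 in edgeR), and without Control replicate 2, its lowest Control library, the value was -1.05. CENPF, a large protein of the outer kinetochore, fell by 0.68 ± 0.09. The subunits of the NDC80 complex, which holds microtubules at the kinetochore, were lower as well: NDC80 fell by 0.45, NUF2 fell by 0.445 and SPC25 fell by 0.25. NDC80 had 17.4, 14.3 and 13.9 FPKM in ENZ, against 21.1, 20.7 and 21.9 FPKM in Control. The SPC25 call (adjusted p = 0.015 in edgeR) was lost without Control replicate 1, Control replicate 3 or ENZ replicate 3, and with offsets for GC content and length, where the log2 fold change was -0.03. CENPA, the histone H3 variant that marks centromeres, had 10.6, 10.1 and 10.2 FPKM in ENZ, against 10.2, 11.1 and 11.1 FPKM in Control. The CENPA groups overlapped (-0.03 on the log2 scale, 95% interval -0.17 to 0.11; adjusted p = 0.754 in edgeR), and the value turned to 0.05 with the offsets.

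All 7 genes of condensin, TOP2A and MKI67 were called lower, with a median log2 fold change of -0.50, the lowest of the 11 roles. Within condensin I, the ring that compacts mitotic chromosomes, the fall was not even in the main test. The gene of the subunit NCAPG fell by 0.63 ± 0.08, with 14.5, 12.2 and 11.1 FPKM in ENZ, against 20.4, 18.9 and 20.8 FPKM in Control (adjusted p = 1.06e-04 in edgeR). The ATPase subunits SMC2 and SMC4, shared with condensin II, fell by 0.57 each, NCAPD2 by 0.28, and NCAPH, the subunit that closes the ring, by 0.15. NCAPH had 20.1, 20.2 and 20.1 FPKM in ENZ, against 22.7, 22.9 and 23.0 FPKM in Control, so this small fall was larger than the spread within either group. With the GC and length offsets the values were -0.45 for NCAPG, -0.38 for SMC2 and SMC4, -0.32 for NCAPD2 and -0.12 for NCAPH. Differences between the subunits were not tested. TOP2A, the topoisomerase that untangles sister chromatids, fell by 0.50 ± 0.05 (37.5 to 45.2 FPKM in ENZ and 57.7 to 61.0 FPKM in Control). MKI67, which encodes the proliferation antigen Ki-67 that coats mitotic chromosomes, had 34.2, 33.4 and 33.3 FPKM in ENZ, against 44.02, 43.7 and 44.4 FPKM in Control. It fell by 0.35 ± 0.03 and had the smallest p of all 55 genes (adjusted p = 1.46e-08 in edgeR).

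Of the 8 genes of spindle assembly and microtubule binding, 6 were called lower. HMMR, a spindle protein and hyaluronan receptor, had 18.5, 14.6 and 12.4 FPKM in ENZ, against 26.97, 25.8 and 27.9 FPKM in Control, and fell by 0.79 ± 0.15 (adjusted p = 0.0124 in edgeR). ASPM, which acts at spindle poles, fell by 0.76, CKAP2 by 0.53, DLGAP5 (HURP), which stabilises spindle fibres near chromosomes, by 0.51 and CKAP2L by 0.42. TPX2, the activator of AURKA on the spindle, had 61.1, 63.1 and 63.2 FPKM in ENZ, against 76.6, 77.5 and 77.8 FPKM in Control. TPX2 fell by 0.27 ± 0.04 (adjusted p = 2.7e-06 in edgeR) and varied far less among ENZ libraries than HMMR did. PRC1, which bundles the central spindle, and NUSAP1, a microtubule-binding protein of the spindle, were almost uncounted in these libraries, with means of 63.5 and 24.3 counts. PRC1 had 0.374, 0.413 and 0.265 FPKM in ENZ, against 0.533, 0.520 and 0.366 FPKM in Control (log2 fold change -0.40; adjusted p = 0.104 in edgeR), and was called lower without Control replicate 3 (-0.55). NUSAP1 had 0.240, 0.186 and 0.226 FPKM in ENZ, against 0.265, 0.286 and 0.239 FPKM in Control (log2 fold change -0.23; adjusted p = 0.512 in edgeR). In the GENCODE annotation 57.6% of the exon bases of PRC1 and 81.4% of those of NUSAP1 are also exon bases of another, unnamed gene on the same strand, so neither count can be read as the level of its gene. Across the 55 genes, 20 share exon bases with another gene of the table, 18 of them on the opposite strand, which these libraries do not separate. Of the genes with printed values, the shared part was 33.7% of exon bases in NCAPG (with LCORL), 19% in SMC4 (with TRIM59) and 15.9% in FOXM1 (with ITFG2).

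The 3 cytokinesis genes were called lower. ECT2, the exchange factor that activates RHOA at the equator, had 21.1, 17.5 and 16.6 FPKM in ENZ, against 27.5, 26.4 and 27.7 FPKM in Control, and fell by 0.53 ± 0.07 (adjusted p = 1.62e-04 in edgeR). ANLN (anillin), a scaffold of the contractile ring, fell by 0.47 ± 0.09. RACGAP1, which pairs with KIF23 in centralspindlin and recruits ECT2, had 33.5, 32.4 and 33.9 FPKM in ENZ, against 37.7, 36.6 and 37.6 FPKM in Control. Its fall of 0.13 ± 0.04 (adjusted p = 0.0093 in edgeR) was lost in 4 of the 17 alternatives, including without Control replicate 1 or ENZ replicate 2.

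The transcription factors that activate this programme differed. MYBL2 (B-MYB) had 41.4, 40.8 and 41.1 FPKM in ENZ, against 48.6, 51.3 and 46.3 FPKM in Control, and fell by 0.21 ± 0.04 (adjusted p = 4.58e-04 in edgeR). FOXM1 had 34.8, 36.4 and 36.1 FPKM in ENZ, against 35.1, 37.4 and 35.5 FPKM in Control. The FOXM1 groups overlapped, the change was 0.03 on the log2 scale (95% interval -0.06 to 0.11; adjusted p = 0.651 in edgeR), and FOXM1 was not called in any of the 17 alternatives, 6 of which gave a value below 0.

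**Figure D3:**
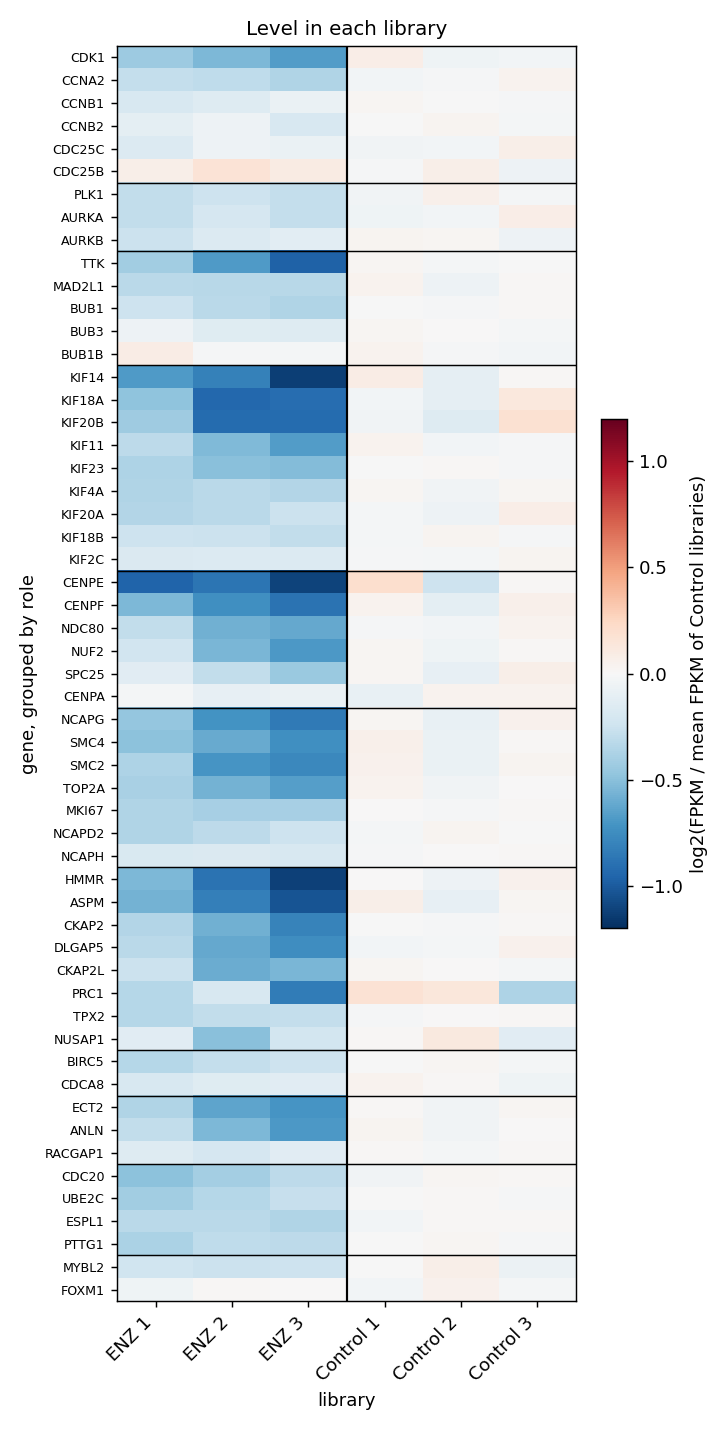
Level of each of the 55 genes (rows, grouped by role) in each library (columns, ENZ left and Control right), as log2 of FPKM over the mean FPKM of the Control libraries. The ENZ columns are mostly blue, and in rows such as HMMR, TTK, ASPM and KIF14 ENZ 3 is the darkest, whereas rows such as TPX2, PLK1 and NCAPH are about as dark in all ENZ libraries and CDC20 is darkest in ENZ 1.

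The ENZ libraries differed from each other in a way that went with base composition. Transcripts of the 55 genes were poor in G and C, with a median GC content of 42.3% (range 34.3% to 60.5%) against 48.0% over all tested genes, and over all tested genes the fold change was correlated with GC content (Spearman's rho 0.34). All 21 genes under 40% GC were called lower, against 40.1% of the 3126 tested genes under 40% GC. Their median log2 ratio to Control (counts scaled by library total, without TMM) was -0.37 in ENZ 1, -0.60 in ENZ 2 and -0.73 in ENZ 3. For all tested genes under 40% GC the same medians were -0.10, -0.21 and -0.29, the same order of libraries. Of the 34 genes at or over 40% GC, 25 were called lower and 1 higher, against 15.0% of 15412 tested genes called lower. Their medians were -0.26 in ENZ 1, -0.25 in ENZ 2 and -0.25 in ENZ 3, so the fall of this class was even over the ENZ libraries, while all tested genes at or over 40% GC had medians between -0.01 and 0.00. Over the 55 genes the fold change was correlated with GC content (Spearman's rho 0.72, n = 55 genes that share the 6 libraries), with the length the authors used (rho -0.46) and with the mean level (rho 0.39), as a description.

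**Figure D4:**
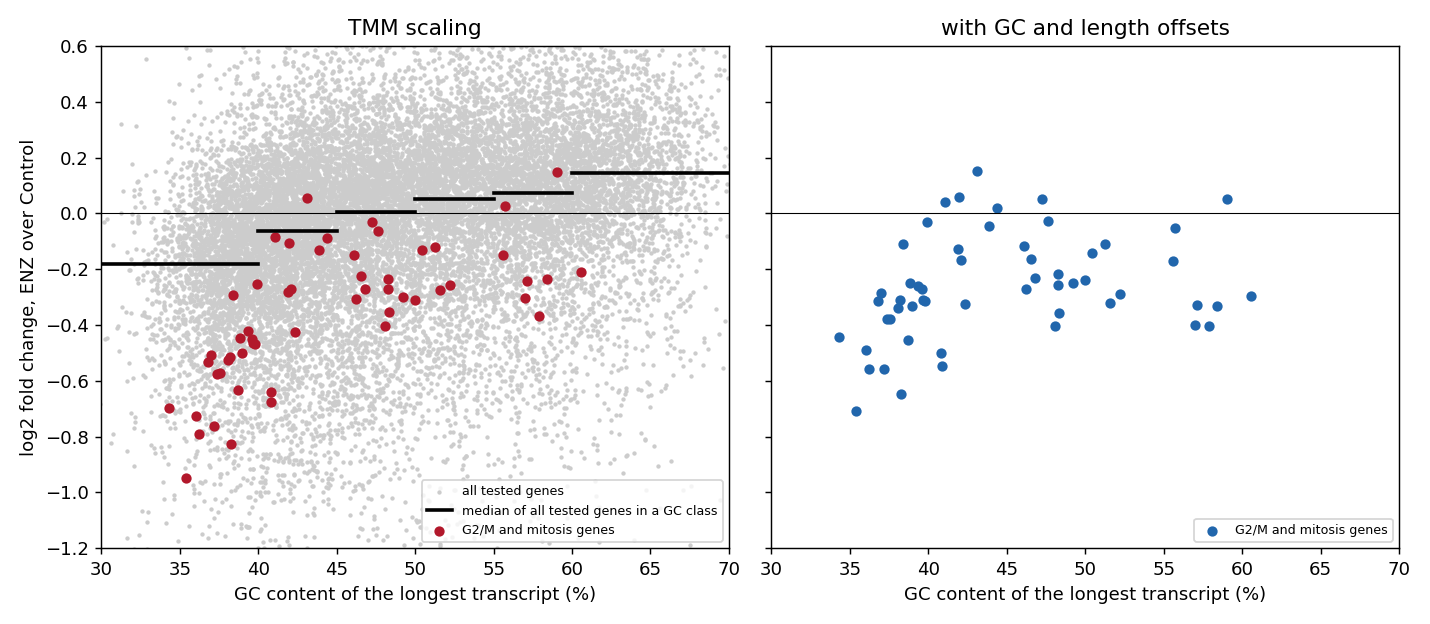
Log2 fold change of ENZ over Control (vertical axis) against GC content of the longest transcript (horizontal axis, percent), with TMM scaling (left; all tested genes grey, the 55 genes red, black bars the median of all tested genes in each GC class, the outer classes being under 40% and over 60%) and with offsets for GC content and length (right; the 55 genes blue). Axes are limited to 30 to 70% GC and to log2 values of -1.2 to 0.6, so outlying grey points are not drawn; most of the 55 lie below the bar of their class, and on the right 49 of 55 lie below 0.

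With per-library offsets for GC content and length, 43 of the 55 genes were called lower and 1 higher (BUB1B), against 16.7% and 26.1% of tested genes. The median log2 fold change was then -0.28 for the 55 genes and 0.03 for all tested genes. Over the 55 genes the fold change with the offsets was still correlated with GC content (Spearman's rho 0.38) and with length (rho -0.55), as a description. Falls became smaller in AT-rich genes and larger in GC-rich ones: CENPE had -0.71 and CDK1 -0.28 with the offsets, whereas PLK1 had -0.33, ESPL1 -0.40 and MYBL2 -0.30. The medians of the roles with the offsets were -0.36 for condensin, TOP2A and MKI67, -0.32 for kinesins and for the APC/C and separase axis, -0.26 for centromere and kinetochore genes, -0.17 for the mitotic kinases, -0.11 for the checkpoint and 0.00 for cyclins, CDK1 and CDC25. In 15 genes called lower in both fits the log2 fold change was over 1.5 times smaller with the offsets: CDK1, CCNA2, BUB1, MAD2L1, KIF11, KIF20B, NDC80, NUF2, SMC2, SMC4, TOP2A, CKAP2, CKAP2L, DLGAP5 and ECT2. All 9 kinesins and all 7 genes of condensin, TOP2A and MKI67 kept a lower call, and CCNB1, SPC25 and RACGAP1 lost theirs. In all, 38 of the 55 genes were called lower in the main test and in each of the 17 alternatives.

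Genes with and without a CHR match were both mostly lower. No match means here only that the letters TTTGAA were absent from the windows on either strand. Of the 35 genes with a match 29 were called lower and none higher, with a median log2 fold change of -0.42. Of the 12 genes with a promoter entry and no match, 11 were called lower and 1, CDC25B, higher, with a median of -0.24. The first class also had the lower median GC content, 39.8% against 47.2%, and with the offsets the medians were -0.32 and -0.17.

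Genes of the same processes outside the 55 were counted from lists written by hand. These lists were chosen with earlier results of these data known, so their counts are descriptions only. Of 23 further late cell cycle genes 21 were called lower and 0 higher, with a median log2 fold change of -0.27; CDCA3, a trigger of entry into mitosis, fell by 0.52, DEPDC1B by 0.48 and the mitotic kinase gene PBK by 0.32. With offsets for GC content and length 15 of the 23 were called lower, DEPDC1B had -0.30, and PBK had -0.05 without a call. Of 33 tested genes among 34 other kinetochore and centromere genes, 23 were lower and 1 higher (median -0.22), with CENPI down by 0.53, ZW10, which brings dynein to kinetochores, by 0.42 and CENPN, which binds CENPA nucleosomes, by 0.32; with the offsets the counts were 16 and 5. The 3 condensin II genes were lower, NCAPH2 by 0.23, NCAPD3 by 0.21 and NCAPG2 by 0.12, and with the offsets NCAPG2 had 0.00 and NCAPH2 -0.36. Centriole and spindle pole genes had 10 lower and 1 higher of 13 (median -0.26), with CEP152 down by 0.78 and PLK4, the kinase that starts centriole duplication, by 0.48, and NUMA1 up by 0.27; with the offsets PLK4 had -0.29 and NUMA1 0.16.

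The kinesin lists differed in the balance of their calls. Of 5 other kinesins listed as mitotic 4 were called lower and none higher (median -0.175), KIF15 by 0.44, KIFC1 by 0.18 and KIF24 by 0.17. With offsets for GC content and length 4 were again lower and 0 higher, but not the same 4. KIF2A lost its call (log2 fold change 0.05) and KIF22 gained one (-0.11). Of 17 genes of transport kinesins and their light chains, which carry cargo along microtubules, 2 were lower and 9 higher (median 0.17). KIF3C had 0.65, KIF13B 0.42 and KIF1A 0.37 as log2 fold changes, each called higher. With the offsets the counts were 3 lower and 10 higher. The difference between mitotic and transport kinesins was not tested as such; the lists are set beside the 19.3% and 20.5% of all tested genes called lower and higher.

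Calls among regulators upstream of the 55 genes went both ways. Over all tested genes 19.3% were called lower and 20.5% higher, and with offsets for GC content and length 16.7% and 26.1%. No list was tested against these shares. Among 18 regulators of mitotic entry 6 were lower and 1 higher (median -0.09), with BORA, the cofactor with which AURKA activates PLK1, down by 0.42 and GTSE1 by 0.31. PPP2R2A, the subunit that directs the phosphatase PP2A against CDK1 substrates, rose by 0.36 ± 0.04 (24.3 FPKM in ENZ and 19.4 FPKM in Control on average; adjusted p = 8.49e-08 in edgeR). With the offsets BORA had -0.26 and this list had 6 lower and 7 higher, so its balance changed with the offsets. Among 17 genes of the APC/C and its regulators 4 were lower and 1 higher (median -0.06), with FBXO5 (EMI1), an inhibitor of the APC/C, down by 0.63, CDC27 by 0.25 and UBE2S by 0.17; with the offsets the counts were 2 and 5, FBXO5 had -0.35, and CDC27 had -0.045 without a call. Of 24 genes of the DREAM, MuvB, RB and E2F group 8 were lower and 3 higher (median -0.09). The offsets gave 6 lower and 7 higher (median 0.00), so this balance changed as well. MYBL1 (A-MYB), the relative of MYBL2, fell by 1.02 ± 0.08 (2.09 FPKM in ENZ and 4.35 FPKM in Control on average), the repressor gene E2F8 fell by 0.37, and CDKN1A (p21), the CDK inhibitor through which the DREAM complex is known to be assembled, rose by 0.77 ± 0.04 (134 FPKM in ENZ and 80.2 FPKM in Control on average; adjusted p = 3.06e-13 in edgeR).

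Cohesin and G1/S genes were called lower in shares between that of all tested genes and that of the mitosis genes. Of 15 cohesin genes and regulators 7 were lower and 1 higher (median -0.26), with SGO2, the protector of centromeric cohesin, down by 0.77, ESCO2 by 0.46 and STAG1 by 0.44; with the offsets the counts were 6 and 3, the median was -0.06 and SGO2 had -0.51. Of 42 genes of G1/S and replication, 21 were lower and 3 higher (median -0.11), with CLSPN down by 0.41 and RRM2 by 0.34, and 23 and 6 with the offsets. The lists were written by hand and are of unequal size, and their counts are descriptions set beside the background.

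**Figure D5:**
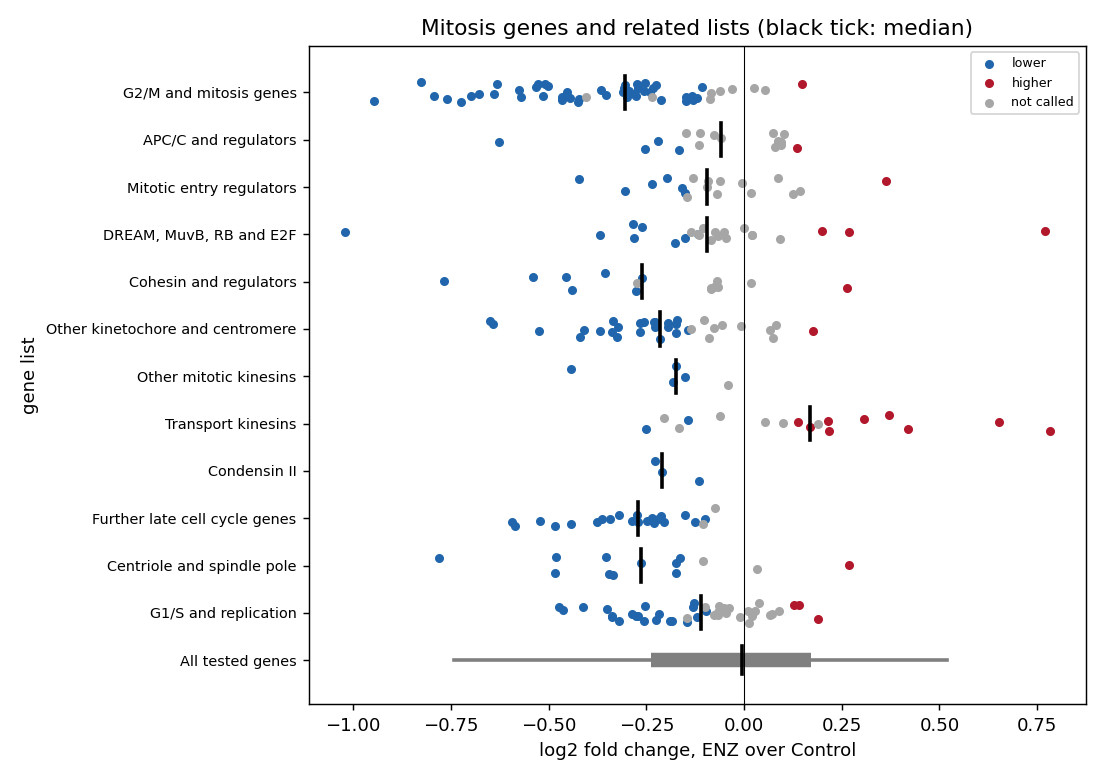
Log2 fold change of ENZ over Control (horizontal axis) of each tested gene (points) in the 55 mitosis genes and 11 related lists (rows), blue for called lower, red for called higher and grey for not called; black ticks are medians, and in the bottom row the thick bar spans the quartiles of all tested genes and the thin line percentiles 5 to 95. The mitosis genes and the further late cell cycle genes lie mostly left of 0, and transport kinesins mostly right of 0.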

How the data were processed

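RNA of 6 libraries was made, per the labels' protocols, with oligo(dT) selection, random hexamer priming and a NEBNext Ultra kit, which does not mark strand. Per the submitters' processing notes, the tools were DESeq2 1.20.0, HTSeq 0.6.1 and HISAT2 2.0.5, on GRCh38 (hg38); no source used here states the annotation or counting settings. The deposited table holds the authors' raw count of every gene and library and its FPKM, and the deposited FPKM equalled counts over 1 length per gene and the library total within 3.55e-06 percent (values of at least 10 counts), so FPKM adds no measurement. Positions, overlaps and GC content (longest transcript) are from GENCODE 44.

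ENZ was set against Control by the robust quasi-likelihood F test of edgeR 4.0.16 in R 4.3.3, on counts of all genes (TMM, default filter). SE is the absolute log2 fold change over the square root of F. Alternatives were DESeq2 1.42.0, limma 3.58.1 on log2(FPKM + 1) with and without a filter of 1 FPKM and on log2(FPKM + 0.1) with it, other scalings and filters, offsets fitted to GC content and length (natural splines, 4 degrees of freedom), a replicate block and each library left out. Scripts were tested on simulated data. Library pairs within a group differed by more than sampling noise (chi-square per degree of freedom 1.93 to 6.15). With 26691289 to 30025543 counts a library, a count of 0 allows up to 3 counts (0.0999 to 0.112 CPM), for counting error alone. The members and lists were chosen with earlier results of these data known, so no p is adjusted over a list. Values in every library are given, per role, for the genes with the smallest p, the largest and the smallest absolute log2 fold change, and for genes not called or called higher; of the other lists, up to the 3 genes with the smallest p are named. Promoters, some coordinates and further values were chosen after the values were seen.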

Additional observations from a re-analysis of the deposited data

How the results depend on the processing

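Under 17 alternatives the 55 genes gave 41 to 48 lower calls, against 46, and their median log2 fold change stayed between -0.34 and -0.28. The 929 values of single members kept direction and call in 868 cases, lost a call in 37, gained one in 10 and changed sign in 14, of which 12 were called in neither fit. The log2 fold change of CCNB1 turned to 0.0581 with the GC and length offsets and 0.0561 with the replicate block added, and the log2 fold change of NCAPG2 to 0.0042 and 0.0041. Without a call in either fit, and in the same order, the log2 fold change of CCNB2 turned to 0.0187 and 0.0189, the log2 fold change of BUB3 to 0.0402 and 0.0405, the log2 fold change of CENPA to 0.0514 and 0.0521 and the log2 fold change of FOXM1 to -0.0514 and -0.0512. FOXM1 was also at -0.0099 on library totals, -0.009 on log2(FPKM + 1), filtered or not, and -0.0092 on log2(FPKM + 0.1). The 1 higher call among members, CDC25B, became 0 in the 3 fits on FPKM. Leaving out each library gave 41 to 45 lower calls and 0 to 1 higher calls among members; over all genes 2782 to 3994 lower and 3041 to 4264 higher, and in the related lists 90 to 118 lower and 17 to 29 higher. Calls over all genes were 2005 lower on unfiltered log2(FPKM + 1), and 2526, 2520 and 1723 higher on log2(FPKM + 1), log2(FPKM + 0.1) and unfiltered log2(FPKM + 1). Higher calls in the related lists came to 44 with the offsets and 42 with the replicate block added, against 20. On library totals alone 4104 genes were lower and 3097 higher, against 3579 and 3814; the 55 genes then had 48 lower and 1 higher. The offsets gave 3103 lower and 4843 higher. The CHR share was 42.6% in the 100 bases before the start (5.76% of all symbols). The causes of these changes were not tested.

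Same-numbered libraries did not deviate together (correlations 0.02, -0.01 and -0.05), so no pairing by number showed in the counts. Whether the libraries were paired in the experiment is not stated. With the replicate block 46 members were lower and 1 higher, and 7466 genes were called against 7393.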
